A study of Homo sapiens with 6 samples.

Results

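The 10 genes described here are ETV4, ETV5, DUSP4, DUSP5, DUSP6, SPRY2, SPRY4, SPRED1, SPRED2 and PHLDA1, transcripts that the ERK kinase cascade switches on and most of which encode inhibitors of that cascade. They were chosen by name as ETS factors, ERK phosphatases, Sprouty and SPRED inhibitors and an associated reporter gene, 10 of the 62700 genes in the deposited count table, and all 10 passed the filter on low counts that left 14649 genes for testing. They were read in SAS, a human line derived from a squamous carcinoma, after siRNA knockdown of the RNA-binding protein IGF2BP1 (siIGF2BP1, 3 libraries, genotype given as IGF2BP1 knockdown) and after a control siRNA (siC, 3 libraries, genotype given as WT). The labels give neither a dose nor a time after transfection, nor the siRNA sequence, and leave it unsaid if the 3 replicates were grown as separate cultures; p-values therefore reflect library-to-library spread, which may be technical. The study set out to ask whether IGF2BP1 protects YAP1 from repression by Hippo signalling.

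ERK is the last kinase of the cascade that runs from receptor tyrosine kinases through RAS, RAF and MEK. Active ERK induces transcription factors such as ETV4 and ETV5, and it also induces its own brakes: dual-specificity phosphatases (DUSPs) that dephosphorylate ERK, and Sprouty and SPRED proteins that block the path to RAF. For that reason the mRNA levels of these genes are widely read as a gauge of cascade output in carcinoma cells, where the brakes often stay expressed at high level.

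The libraries held 17918496, 21424075 and 25926371 reads in knockdowns 1 to 3 and 23775889, 23833658 and 26675064 reads in controls 1 to 3. IGF2BP1 itself stood at 29, 25 and 21 reads in the knockdown libraries, against 185, 223 and 292 reads in the control libraries (log2 fold change -3.07, adjusted p = 4.56e-06, edgeR quasi-likelihood test). Squamous markers were present in both groups (TP63 averaged 26.2 CPM, the read count scaled to library size, after knockdown and 26.4 CPM in controls). However, 5 of 12 were called lower after knockdown, against 6.66% of all tested genes, and 0 higher. KRT5 averaged 477 CPM after knockdown and 3584 CPM in controls (log2 fold change -2.91). KRT6A (-2.02), LAMB3 (-0.98) and KRT14 (-0.43) were also called lower. The summed level of the 12 ranged from 8688 to 10816 CPM after knockdown, against 14485 to 15584 CPM in controls. Of 10 leukocyte, 10 endothelial and 10 fibroblast markers, 6, 4 and 5 had 0 reads in all libraries, and the summed level of each list stayed below 20 CPM in each library. The leukocyte list summed to between 12.5 and 15.1 CPM after knockdown and between 17.4 and 19.1 CPM in controls. The endothelial list summed to between 6.61 and 14.5 CPM after knockdown and between 6.503 and 8.75 CPM in controls. The fibroblast list summed to between 5.72 and 9.29 CPM after knockdown and between 6.37 and 8.54 CPM in controls, with PDGFRB called higher (adjusted p = 0.0491, edgeR), a call lost in each of the 6 fits without 1 library (adjusted p from 0.0706 to 0.186). PTPRC, which marks leukocytes, and the fibroblast matrix genes COL3A1, DCN and LUM had no reads. Other markers were expressed. The leukocyte sum came mostly from CD14, at 13.1 CPM after knockdown and 17.8 CPM in controls, without overlap but not called (adjusted p = 0.0944, edgeR). The fibroblast gene COL1A1 averaged 5.17 CPM after knockdown and 6.31 CPM in controls, and the endothelial gene VWF 6.52 CPM and 4.45 CPM. Neither was called. The part of these shifts in the results was not tested, and in bulk RNA fewer cells of a kind and less RNA per cell cannot be told apart.

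The 10 genes did not move as a block. ETV5, SPRED2 and ETV4 rose after knockdown, by 2.04-fold, 1.72-fold and 1.41-fold, DUSP5 fell by 21.5%, and the other 6 were not called (adjusted p under 0.05 in the edgeR test). Over all 14649 tested genes 6.27% were called higher and 6.66% lower, 12.9% in either direction, against 3 and 1 of these 10 genes. The median log2 fold change of the 10 was 0.20, against 0.033 for all tested genes, with values from -0.35 (DUSP5) to 1.03 (ETV5). The CPM ranges of the groups did not overlap for 5 of the 10, the 4 called genes and DUSP6, while 30.7% of all tested genes showed such a separation.

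**Figure D1:**
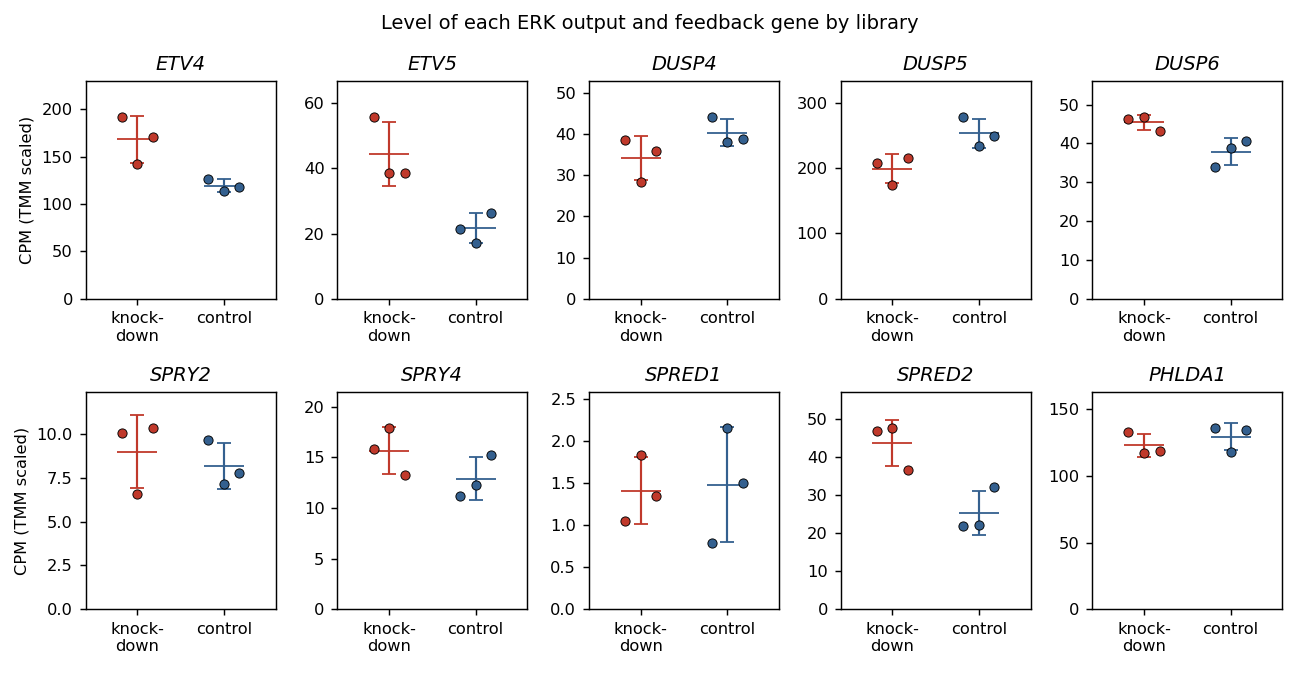
Level of each gene in CPM (linear axis from 0) in the 3 knockdown libraries (red, left) and the 3 control libraries (blue, right); points are libraries and bars the mean with SD. ETV4, ETV5, SPRED2 and DUSP6 have all 3 knockdown points above all 3 control points, DUSP5 has them below, and the groups overlap for the other 5 genes.

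**Figure D2:**
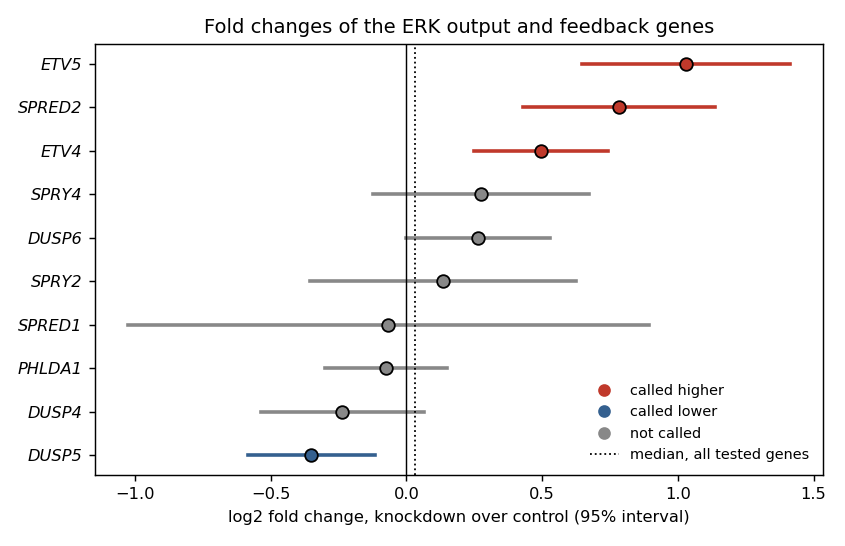
Log2 fold change of each gene, knockdown over control, with its 95% interval from the edgeR fit; the dotted line marks the median of all tested genes (0.033). The intervals of ETV5, SPRED2 and ETV4 lie above 0 and that of DUSP5 below, while the interval of SPRED1 runs from -1.02 to 0.89.

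The ETS transcription factors ETV4 and ETV5 belong to the same PEA3 subfamily and bind GGAA-containing sites in genes of growth and invasion. ETV5 (ENSG00000244405; GRCh38 chromosome 3, 186046308 to 186110318, minus strand) had 55.6, 38.6 and 38.6 CPM in the 3 knockdown libraries and 21.3, 17.2 and 26.4 CPM in the 3 control libraries (numbers 1 to 3 in this order throughout). Each knockdown library stood above each control library, and knockdown 1, the shallowest library, stood apart at the top. The means were 44.3 ± 9.84 CPM after knockdown and 21.7 ± 4.62 CPM in controls (SD, n = 3 each), a log2 fold change of 1.03 (SE 0.18, adjusted p = 0.00112, edgeR). Without knockdown 1 it was 0.83 (adjusted p = 0.00426). ETV5 shares 2.83% of its exon bases with DGKG on the same strand, a gene that held 28, 38 and 43 reads in the knockdowns and 12, 11 and 24 in the controls, against 1012, 882 and 1006 reads of ETV5 in the knockdowns and 486, 400 and 689 in the controls.

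ETV4 (ENSG00000175832; chromosome 17, 43527844 to 43579620, minus strand) was the more abundant factor, also per kilobase, with 191, 142 and 170 CPM in the knockdowns and 126, 113 and 118 CPM in the controls. The control libraries lay close together and the knockdown libraries were spread more widely, again with knockdown 1 the highest. ETV4 averaged 168 ± 24.6 CPM after knockdown and 119 ± 6.71 CPM in controls (SD, n = 3 each), a log2 fold change of 0.49 (SE 0.12, adjusted p = 0.00955, edgeR). Its adjusted p was 0.0497 without control 2, and 1.89% of its exon bases are shared with DHX8 on the opposite strand. The ratio of ETV5 to ETV4 reads, which no scaling between libraries can alter, was 0.291, 0.271 and 0.227 in the knockdowns and 0.168, 0.152 and 0.224 in the controls. Knockdown 3 and control 3 were nearly equal in this ratio.

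DUSP5, DUSP6 and DUSP4 are ERK phosphatases that differ in where they act: DUSP5 and DUSP4 reside in the nucleus and DUSP6 in the cytoplasm, where it binds ERK directly. DUSP5 (ENSG00000138166; chromosome 10, 110497838 to 110511544, plus strand) had 208, 174 and 215 CPM in the knockdowns and 278, 234 and 248.7 CPM in the controls. Its highest knockdown library lay below its lowest control library. It averaged 199 ± 21.9 CPM after knockdown and 253 ± 22.2 CPM in controls (SD, n = 3 each), a log2 fold change of -0.35 (SE 0.11, adjusted p = 0.0472, edgeR). That call lay at the threshold: without knockdown 2, knockdown 3, control 1 or control 3 the adjusted p was 0.102, 0.0623, 0.13 and 0.0716, and with no scaling factor 0.081.

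DUSP6 (ENSG00000139318; chromosome 12, 89347232 to 89353271, minus strand) had 46.4, 46.7 and 43.3 CPM in the knockdowns and 34.1, 38.9 and 40.6 CPM in the controls. All 3 knockdown libraries stood above the controls, but the margin between knockdown 3 and control 3 was small and the gene was not called (log2 fold change 0.26, 95% interval -0.0020 to 0.53, adjusted p = 0.198, edgeR). An antisense gene, AC024909.2, covers 40.5% of the exon bases of DUSP6. Reads over those bases could be mixed between the pair, or dropped, if the counting ignored strand. Either would also bear on the level of DUSP6 per kilobase. The table gives that antisense gene 20, 6 and 4 reads in the knockdowns and 13, 27 and 20 in the controls, against 844, 1068 and 1128 reads of DUSP6 in the knockdowns and 777, 904 and 1059 in the controls.

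DUSP4 (ENSG00000120875; chromosome 8, 29333064 to 29350668, minus strand) had 38.7, 28.4 and 35.9 CPM in the knockdowns and 44.1, 38.2 and 38.8 CPM in the controls. Knockdown 1 lay between the controls, so the groups overlapped, and the log2 fold change of -0.24 was not called (95% interval -0.54 to 0.07, adjusted p = 0.331, edgeR). Set against each other within a library, 2 of the 3 pairs of phosphatases separated the groups. The ratio of DUSP4 to DUSP6 reads was 0.833, 0.607 and 0.829 in the knockdowns and 1.29, 0.981 and 0.955 in the controls. The ratio of DUSP6 to DUSP5 reads was 0.223, 0.269 and 0.201 in the knockdowns and 0.123, 0.166 and 0.163 in the controls. The ratio of DUSP4 to DUSP5 reads overlapped, at 0.186, 0.163 and 0.167 in the knockdowns and 0.159, 0.163 and 0.156 in the controls.

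**Figure D3:**
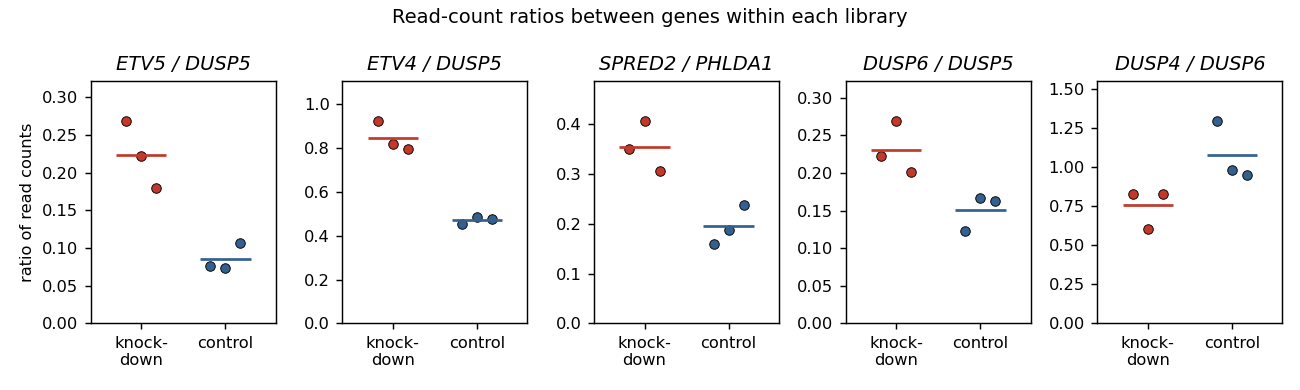
Ratios of raw read counts between pairs of the genes within each library (linear axis from 0), knockdown libraries in red on the left and control libraries in blue on the right; points are libraries and lines their mean. The pairs were picked after the values were seen, and in all 5 of them the groups do not overlap; the mean ratio of ETV5 to DUSP5 was 2.61 times as high in the knockdowns as in the controls.

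Of the 11 ratios computed, that of ETV5 to the phosphatase DUSP5 shifted most, to a mean 2.61 times as high in the knockdowns as in the controls, and that of SPRED2 to DUSP5 followed at 2.21 times. ETV5 reads were 0.268, 0.222 and 0.180 times those of DUSP5 in the knockdowns, against 0.0767, 0.0736 and 0.106 times in the controls. For ETV4 the ratio to DUSP5 was 0.921, 0.819 and 0.793 in the knockdowns and 0.455, 0.483 and 0.475 in the controls, with little spread within either group and a mean 1.79 times as high in the knockdowns. ETV4 against DUSP6 did not separate the groups, at 4.12, 3.05 and 3.93 in the knockdowns and 3.71, 2.91 and 2.91 in the controls. The 11 pairs were picked by hand and not all possible pairs were computed. Several of them set a gene against DUSP5, the only called fall. Their ratios restate the fold changes above without any scaling factor and carry no test of their own.

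SPRED1 and SPRED2 are membrane-associated inhibitors that recruit the RAS-inactivating protein neurofibromin. SPRED2 (ENSG00000198369; chromosome 2, 65310851 to 65432637, minus strand) had 46.6, 47.5 and 36.5 CPM in the knockdowns and 21.8, 22.1 and 32.04 CPM in the controls. Knockdown 3 was the lowest of its group and control 3 the highest of its own, and they still did not overlap. SPRED2 averaged 43.6 ± 6.09 CPM after knockdown and 25.3 ± 5.85 CPM in controls (SD, n = 3 each), a log2 fold change of 0.78 (SE 0.17, adjusted p = 0.00489, edgeR). Leaving out 1 library at a time gave values between 0.65 and 0.98, all called, with the highest adjusted p (0.0411) without control 1.

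SPRED2 was the only called gene of the 10 with promoter entries in the RefSeq table used (GRCh38.p14, 250 bases before to 50 after each start), and both of its promoters are shown because they differ in base composition and in the motifs they hold. The third sequence is the SPRY2 promoter that holds a short ETS core. Capitals mark the motif found, and the sequences read 5′ to 3′ on the gene's strand.
SPRED2 promoter 1, chr2:65432550-65432849, minus strand: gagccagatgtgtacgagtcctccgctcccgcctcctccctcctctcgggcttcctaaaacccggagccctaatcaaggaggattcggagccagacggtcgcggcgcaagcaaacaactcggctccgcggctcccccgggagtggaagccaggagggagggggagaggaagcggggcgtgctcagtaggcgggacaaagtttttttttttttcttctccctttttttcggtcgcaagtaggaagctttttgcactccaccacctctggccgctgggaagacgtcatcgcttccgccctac
SPRED2 promoter 2, chr2:65366729-65367028, minus strand: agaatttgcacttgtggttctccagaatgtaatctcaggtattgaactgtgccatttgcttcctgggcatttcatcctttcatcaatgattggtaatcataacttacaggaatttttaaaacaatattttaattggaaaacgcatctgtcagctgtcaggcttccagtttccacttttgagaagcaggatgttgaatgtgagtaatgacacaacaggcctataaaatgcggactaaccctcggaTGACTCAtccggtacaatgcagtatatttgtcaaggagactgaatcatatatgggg
SPRY2 promoter 2, chr13:80340059-80340358, minus strand: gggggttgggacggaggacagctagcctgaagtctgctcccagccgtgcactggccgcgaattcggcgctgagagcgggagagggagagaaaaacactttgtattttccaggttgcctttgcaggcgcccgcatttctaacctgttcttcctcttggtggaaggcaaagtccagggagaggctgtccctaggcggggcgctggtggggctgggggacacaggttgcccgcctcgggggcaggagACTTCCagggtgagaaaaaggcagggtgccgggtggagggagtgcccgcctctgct

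Promoter 1 of SPRED2 is 60.0% G and C and promoter 2 is 39.3%. Promoter entries of these genes on chromosome 8, where DUSP4 lies, were left out of the search. Among the rest, 6 of the 10 genes had entries, 9 promoters in all (SPRED2, SPRY4, PHLDA1, DUSP6, SPRY2 and SPRED1). No promoter of ETV4, ETV5, DUSP4 and DUSP5 is shown. Each was searched on both strands for TGAATGAA and TGAATGGA, the octamers bound by the repressor capicua, for the ETS core GGAAGT and the longer ACCGGAAGT that contains it, for the AP-1 site TGAGTCA and for the cyclic AMP response element TGACGTCA. The AP-1 site was found once, as its reverse complement TGACTCA starting 6 bases before the start of SPRED2 promoter 2, and 4.95% of the 35116 promoters in the table hold it. The ETS core was found in 1 of the 9 promoters, as its reverse complement ACTTCC in SPRY2 promoter 2, a core that 22.8% of all promoters hold. None of the 9 held a capicua octamer (1.65% and 1.03% of all promoters hold them), ACCGGAAGT (1.00%) or TGACGTCA (1.85%). The counts do not separate reads by promoter, so no promoter can be tied to the rise of SPRED2.

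SPRED1 (ENSG00000166068; chromosome 15, 38252326 to 38357249, plus strand) was far less abundant, at 19, 42 and 35 reads in the knockdowns and 18, 50 and 39 reads in the controls. These counts leave a wide 95% interval for its log2 fold change of -0.07, from -1.02 to 0.89, and a change of the size seen in SPRED2 was not detectable at this depth (adjusted p = 0.95, edgeR). The sign of the SPRED1 value turned with no scaling factor.

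SPRY2 and SPRY4 encode Sprouty proteins, which restrain signalling from receptor tyrosine kinases to RAS and RAF. SPRY4 (ENSG00000187678; chromosome 5, 142310427 to 142326455, minus strand) had 15.8, 17.9 and 13.3 CPM in the knockdowns and 11.2, 12.2 and 15.3 CPM in the controls. Control 3 stood above knockdown 3, so the groups overlapped, and the log2 fold change of 0.28 was not called (95% interval -0.12 to 0.67, adjusted p = 0.397, edgeR). SPRY2 (ENSG00000136158; chromosome 13, 80335976 to 80340951, minus strand) had 10.1, 6.56 and 10.3 CPM in the knockdowns and 9.64, 7.15 and 7.75 CPM in the controls. The lowest of these 6 values was that of knockdown 2, and the log2 fold change was 0.14 (95% interval -0.36 to 0.63, adjusted p = 0.775, edgeR).

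PHLDA1 (ENSG00000139289; chromosome 12, 76025447 to 76033932, minus strand), which encodes a pleckstrin homology-like protein induced by growth factors, was abundant and close to level between groups. It had 133, 117 and 119 CPM in the knockdowns and 136, 118 and 135 CPM in the controls. The log2 fold change was -0.07 (95% interval -0.30 to 0.15, adjusted p = 0.724, edgeR), an interval from -18.8% to 11.1% in linear terms. With no scaling factor the value was 0.0097. Antisense genes cover 16.5% of its exon bases, of which AC011611.3 held 235, 231 and 267 reads in the knockdowns and 302, 176 and 371 in the controls.

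Between genes, levels were compared per kilobase of the deposited gene length. DUSP5 led at 78.5 ± 8.63 CPM per kilobase after knockdown and 99.99 ± 8.76 CPM per kilobase in controls (SD, n = 3 each), followed by ETV4 (47.8 ± 6.99 after knockdown and 33.9 ± 1.91 in controls), PHLDA1 (20.8 ± 1.45 after knockdown and 21.9 ± 1.70 in controls) and DUSP6 (11.8 ± 0.490 after knockdown and 9.81 ± 0.886 in controls). These 4 kept the same order in both groups, with no overlap between neighbours within a group. Below them the order differed: after knockdown SPRED2 (7.91 ± 1.11) and ETV5 (7.67 ± 1.70) overlapped each other and stood above DUSP4 (4.72 ± 0.733), whereas in controls DUSP4 (5.55 ± 0.445), SPRED2 (4.59 ± 1.06) and ETV5 (3.75 ± 0.800) followed one another, each overlapping the next. SPRY2 and SPRY4 overlapped in both groups, at 2.796 ± 0.654 and 2.39 ± 0.352 after knockdown and 2.55 ± 0.405 and 1.97 ± 0.322 in controls. SPRED1 was lowest at 0.182 ± 0.0517 after knockdown and 0.191 ± 0.0881 in controls.

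**Figure D4:**
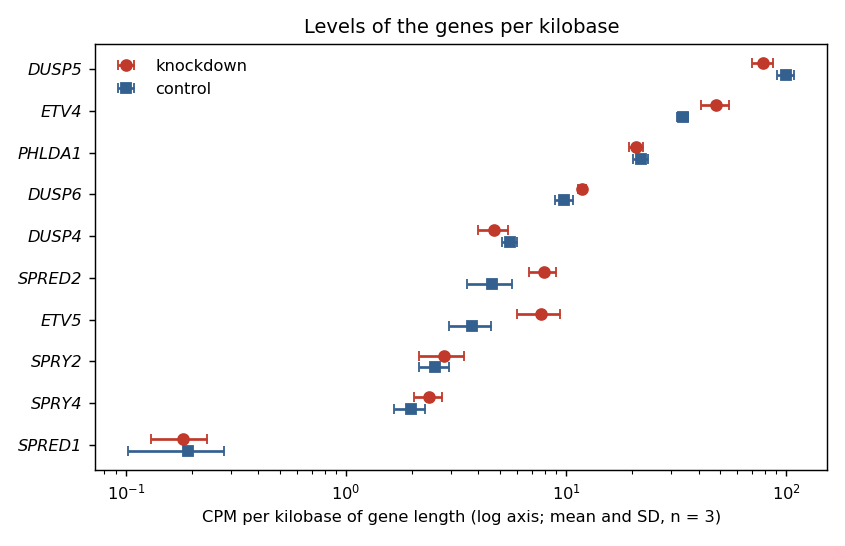
Level of each gene in CPM per kilobase of gene length (log axis), mean and SD of 3 knockdown libraries (red circles) and 3 control libraries (blue squares). DUSP5 and ETV4 lead in both groups, at 78.5 and 47.8 CPM per kilobase after knockdown, and ETV5 and SPRED2 stand above DUSP4 after knockdown.

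Within groups some of the genes varied together. After the group means were subtracted from log2 CPM, DUSP5 and SPRY2 had a Pearson r of 0.990 over the 6 libraries, ETV4 and DUSP4 of 0.977 and SPRY4 and SPRED2 of 0.942, while SPRED1 ran opposite to DUSP5 (-0.849). These are descriptions over few libraries that share depth and scaling. Over all 6 libraries, with the group difference included, the profile of ETV5 was closest to those of PLAGL2 (r 0.998), SLC38A5 (0.997) and CERCAM (0.990), and that of ETV4 to SLC2A1 (0.998), MAN2A2 (0.997) and WDR1 (0.995). DUSP5 was closest to SHARPIN (0.997), IGFBP3 (0.995) and PRPF19 (0.992), and SPRED2 to SUNO1 (0.997), BACE1-AS (0.995) and NEK9 (0.993). Of these, SLC38A5, MAN2A2, SHARPIN, PRPF19, SUNO1, BACE1-AS and NEK9 were not called (adjusted p from 0.0579 to 0.358, edgeR). SUNO1 averaged 3.70 CPM after knockdown and 1.82 CPM in controls, and BACE1-AS 1.3 CPM after knockdown and 0.68 CPM in controls. An r this high was common: 139 genes reached an r above 0.95 with ETV5, 260 with ETV4, 176 with DUSP5 and 72 with SPRED2.

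Other genes listed with the feedback layer also split. Of 14 tested phosphatase, Sprouty, SPRED and other signalling regulator genes outside the 10, 3 rose and 4 fell, against 6.27% and 6.66% of all tested genes. Not all of them are inhibitors of ERK, so the split is not a count of ERK inhibitors. Their median log2 fold change was 0.09. PEA15, which binds ERK and holds it in the cytoplasm, averaged 469 ± 44.9 CPM after knockdown and 296 ± 13.9 CPM in controls (SD, n = 3 each), a log2 fold change of 0.66 (adjusted p = 4.13e-04, edgeR). SPRED3, another SPRED gene, had 10.8, 10.02 and 10.4 CPM in the knockdowns and 4.86, 5.90 and 4.72 CPM in the controls (log2 fold change 1.0, adjusted p = 0.00468, edgeR). The atypical phosphatase gene DUSP14 rose too (0.67, adjusted p = 0.00172, edgeR).

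The falls in this list were led by DUSP2 (chromosome 2, 96143166 to 96145440, minus strand), which encodes an inducible nuclear phosphatase of ERK. DUSP2 had 77.5, 70.8 and 80.4 CPM in the knockdowns, far below the 240, 227 and 214 CPM of the controls. The gap was wide relative to the spread within groups (log2 fold change -1.57, SE 0.10, adjusted p = 6.37e-08, edgeR). DUSP10, which acts on JNK and p38, fell (-0.67), as did DUSP7, a cytoplasmic ERK phosphatase (-0.49), and the immediate early gene IER3 (-0.48), whose adjusted p was 0.0598 without control 1. DUSP1, the prototype of the family, averaged 54.1 CPM after knockdown and 54.0 CPM in controls and was not called, and neither was SPRY1 (0.38, adjusted p = 0.465, edgeR). Genes on the opposite strand cover 26.5% of the exon bases of IER3 and 6.59% of those of PEA15.

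While ETV4, ETV5 and SPRED2 rose, 8 of 19 other ERK-dependent transcripts tested fell, against 6.66% of all tested genes. The other 11 were not called, 6 of the 19 had positive fold changes, and the median was -0.15; at an unadjusted p under 0.05 8 were lower and 2 higher. The immediate early factor EGR1 had 118, 102 and 130 CPM in the knockdowns and 514, 417 and 584 CPM in the controls (log2 fold change -2.11, adjusted p = 3.88e-08, edgeR). EGR3 (-1.65), FOS (-1.44) and the chemokine gene CXCL8 (-1.43) also fell, as did the immediate early genes IER2 (-1.19) and JUNB (-1.14). LIF (-0.56), a cytokine gene, and MYC (-0.34) completed the falls, and MYC had adjusted p-values of up to 0.131 without knockdown 2, knockdown 3, control 1 or control 3. The later-responding FOSL1 (0.06), CCND1 (-0.15) and EPHA2 (-0.04), often read together with DUSP6 and ETV4 as cascade output, were not called. ARC (0.51, adjusted p = 0.0599, edgeR) and VGF (0.64, adjusted p = 0.13, edgeR) had knockdown values that all lay above the controls. ARC was called higher in 4 of 14 alternatives, namely no scaling factor, the 5 CPM filter, the replicate block and DESeq2 (adjusted p from 0.0279 to 0.225 over the 14), and VGF in none of the 14 (0.0633 to 0.312). Genes on the opposite strand cover 30.8% of the exon bases of IER2 and 14.2% of those of JUNB.

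Of the cascade itself, 2 of 16 tested genes rose and 2 fell, against 6.27% and 6.66% of all tested genes. The median of the 16 was 0.25. MAP2K2 (chromosome 19, 4090321 to 4124129, minus strand), which encodes the ERK-activating kinase MEK2, had 160, 148 and 164 CPM in the knockdowns and 365, 316 and 348 CPM in the controls (log2 fold change -1.13, SE 0.10, adjusted p = 1.99e-06, edgeR). All 3 knockdown libraries lay below the controls, and the fall was called without any 1 library. Its paralog MAP2K1 was not called, at 94.3 CPM after knockdown and 96.5 CPM in controls. MAPK3, the gene of ERK1, fell (-0.36, adjusted p = 0.0376, edgeR), with adjusted p-values of up to 0.105 without knockdown 2, knockdown 3, control 1 or control 3. HRAS (0.54) and RRAS (0.69) rose; without knockdown 1, knockdown 2, control 2 or control 3 the adjusted p of HRAS was 0.0555, 0.0709, 0.115 and 0.108, and without knockdown 3 that of RRAS was 0.0518.

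Among regulators of RAS, 2 of 14 tested genes rose, against 6.27% of all tested genes, and the list median was -0.02. They were the exchange factor gene RASGRF1 (0.94) and NF1 (0.97), which encodes neurofibromin, the partner of SPRED proteins. NF1 averaged 5.94 ± 1.98 CPM after knockdown and 3.02 ± 0.764 CPM in controls (SD, n = 3 each; adjusted p = 0.0458, edgeR), and of the 6 fits that left out a library it was called only in that without knockdown 1. Of 12 receptors, AXL rose (0.67) and ERBB3 (-1.28) and ERBB2 (-0.42) fell, against 6.27% and 6.66% of all tested genes. AXL was 0.43 without knockdown 1, and ERBB2 had an adjusted p of 0.0814 without knockdown 3 (edgeR). Of 8 tested ligands and ligand carriers 3 fell, against 6.66% of all tested genes, and the other 5 were not called. Those that fell were FGFBP1, a carrier that releases fibroblast growth factors from the matrix (-1.91), the EGFR ligand AREG (-0.85) and the ERBB3 ligand NRG1 (-0.51).

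ETS factors other than ETV4 and ETV5 included 2 falls, ETS2 (-0.53, adjusted p = 0.00405, edgeR) and ELF4 (-0.43), among 12 tested genes with a median of 0.04. Over all tested genes 6.66% fell. ETV1, the other PEA3 factor, had too few reads to be tested. Capicua is a repressor that holds ETV4, ETV5 and other genes of this group off until ERK relieves it. The list of capicua and associated genes gave 0 calls among 8 tested genes in the edgeR test, against 12.9% of all tested genes. At an unadjusted p under 0.05, 1 was higher and 2 lower, and over the 14 alternatives between 0 and 2 were called lower and 0 higher. The 2 lower calls came with the replicate block and without knockdown 1, and 1 lower call each with RLE scaling, no count filter, DESeq2 and without control 3. The capicua gene CIC averaged 128 CPM after knockdown and 116 CPM in controls (log2 fold change 0.14, adjusted p = 0.488, edgeR).

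**Figure D5:**
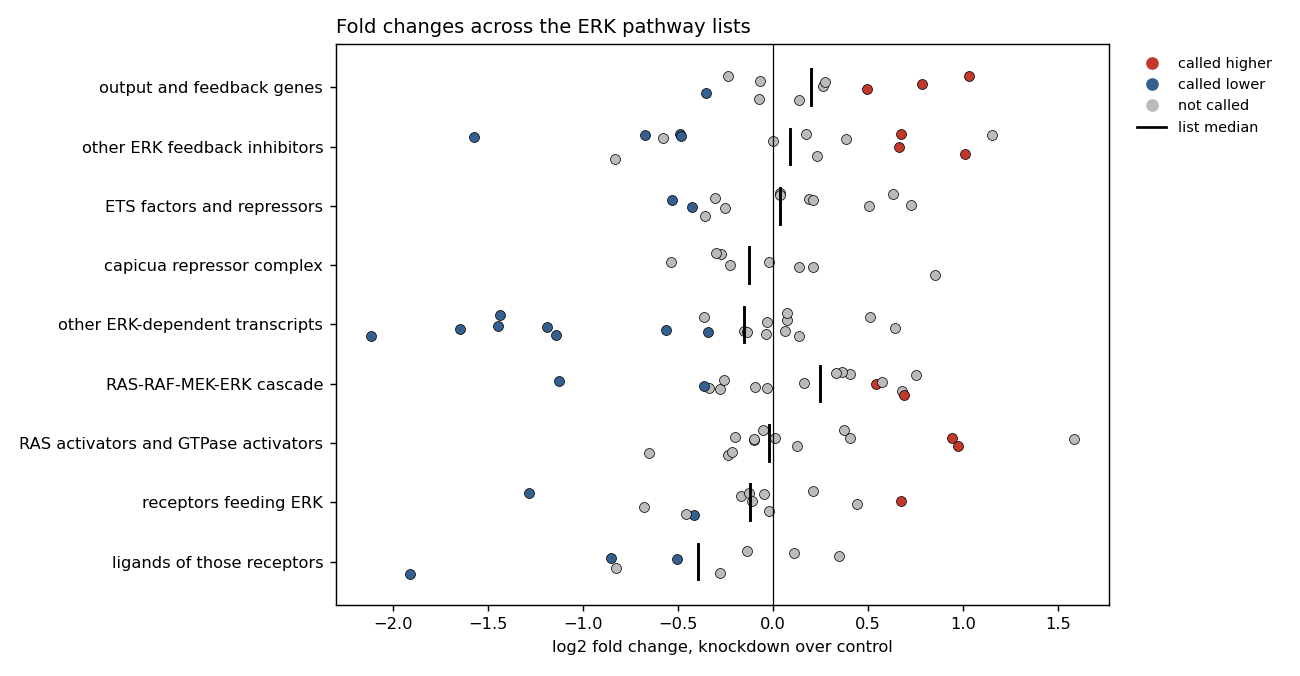
Log2 fold change of each tested gene in 9 lists of the ERK pathway (knockdown over control, linear axis), coloured by call, with the list median as a bar; vertical scatter is for legibility. The 8 called transcripts among the other ERK-dependent genes all lie below 0, while 3 of the 4 called output and feedback genes lie above it. Over all tested genes 6.27% were called higher and 6.66% lower.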

How the data were processed

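Poly(A)-selected RNA from 6 SAS libraries was sequenced; per the labels' protocols the libraries were strand-marked with dUTP. The authors deposited raw read counts per gene and a gene length in bases, the latter used here only to scale levels per kilobase. Per the submitters' processing notes, the pipeline used the build hg38 with HISAT2 2.1.0, featureCounts 2.0.0, cutadapt 2.8 and SAMtools 1.10. Which annotation was counted, with which strand setting and how multiply mapped reads were handled is not given in the sources used here, so overlaps with other genes are stated beside values.

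Columns were matched to samples by library name, and 0 columns of per-sample values were unused. Genes were kept with filterByExpr (minimum count 10, minimum total 15) and tested in R 4.3.3 with edgeR 4.0.16 (TMM factors, robust dispersion, glmQLFit and glmQLFTest, no covariate), with Benjamini-Hochberg adjustment over all 14649 tested genes and calls at an adjusted p under 0.05. CPM are TMM scaled. The SE is the fitted coefficient over the square root of its F statistic. Depth ranged from 17918496 to 26675064 reads; 3 reads correspond to between 0.112 and 0.167 CPM, a floor for counting error alone. Libraries of 1 group were no copies of each other (chi-square per degree of freedom from 14.6 to 36.2).

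The members, lists and tests were chosen with earlier results of these data known, so no list was tested as a set; counts and medians are given. Named were all 10 genes and, per list, up to 4 called genes in each direction; IER2, JUNB, LIF, MYC, DUSP1, SPRY1, FOSL1, CCND1, EPHA2, ARC, VGF, MAP2K1 and CIC were named after their values were seen. Likeness was read as Pearson r of log2 CPM (prior count 2). Coordinates and exon overlaps come from GENCODE release 29 on GRCh38, found for all 46 genes looked up. On simulated data for this comparison (14649 genes, 10 simulations, 200 changed genes each), the fit recovered, with the right sign, 24.5% of the 1.5-fold changes, 49.6% of the 2-fold changes and 78.0% of the 4-fold changes, and 8.33% of calls were unchanged genes. In the data 1893 genes were called, and the adjusted p depends on how many genes change. These shares therefore describe the simulated setting and do not measure the sensitivity in the data. Alternatives were DESeq2 1.42.0, limma-voom (limma 3.58.1), RLE or no scaling factors, dropping the count filter or raising it to 5 CPM in 3 libraries, a block for replicate number, dispersion without robust estimation, and leaving out each library.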

Additional observations from a re-analysis of the deposited data

How the results depend on the processing

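In all 14 alternatives 3 of the 10 genes, ETV5, SPRED2 and ETV4, were called higher, with log2 fold changes from 0.83 to 1.18, 0.65 to 0.98 and 0.39 to 0.58. The number called lower, 1 (DUSP5), was 0 with no scaling factor and 0 with dispersion not robust (adjusted p = 0.081 and 0.0549), and between 0 and 1 when 1 library was left out; DUSP5 stayed negative throughout, from -0.42 to -0.27. The number of all genes called, 1893, lay between 1231 (without control 2) and 1948 (without knockdown 1) when 1 library was left out, and between 1834 (limma-voom) and 2431 (replicate block) under the other settings. With the replicate number as a block 2431 genes were called, of the 10 genes again 3 higher and 1 lower, and DUSP5 had an adjusted p of 0.0109 (edgeR). The r of deviations from the group means was 0.179, 0.0863 and -0.0730 for same-numbered libraries. For differently numbered libraries it ran from -0.235 to 0.166. With so few libraries these values cannot settle if the replicate numbers pair them. Values near 0 changed sign. SPRED1 was 0.021 with no scaling factor and 0.023 with limma-voom, and ran from -0.39 to 0.30 without 1 library. With no scaling factor PHLDA1 was 0.0097, EPHA2 0.046 and MAP2K1 0.048; MAP2K1 was 0.0018 with the 5 CPM filter. Without 1 library FOSL1 ran from -0.043 to 0.13, EPHA2 from -0.11 to 0.0050, DUSP1 from -0.10 to 0.060 and MAP2K1 from -0.13 to 0.048. DUSP1 was -0.014 with RLE scaling, -0.013 with no count filter and -0.014 with DESeq2. The causes were not tested. Of 29 called genes in the pathway lists outside the 10, 22 were called in the same direction by every alternative that could test them; IER3, MYC, HRAS, RRAS, MAPK3, NF1 and ERBB2 lost the call in at least 1. SPRED1 could not be tested with the 5 CPM filter, and its counts of 18 to 50 reads limit what can be seen.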
